A study of Mus musculus with 36 samples.

Results

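The left ventricles of MKK7D transgenic mice harvested late after tamoxifen were compared with those harvested early, array against array and without the control hearts. The comparison took the arrays whose titles name an MKK7D transgenic heart at a late or an early timepoint, 3 each, which were 6 of the 36 arrays in all. Both groups carried a floxed MKK7D transgene and a Mer-Cre-Mer transgene, each behind the α myosin heavy chain (αMHC) promoter, on a C57 black background. Both received intraperitoneal tamoxifen at 20 mg/kg once daily on 3 consecutive days from 12 weeks of age. The early hearts were taken 4 to 7 days and the late hearts 2 to 4 weeks after the first injection, so age and time since induction cannot be told apart. All 6 arrays carry female titles. The 6 female control arrays of the line, 3 at each time, came from littermates without transgenes that also received tamoxifen. Replicate numbers are given, but the labels do not tie them to separate mice, so the p-values below measure only how these arrays scatter, and 3 arrays a group limit the precision.

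MKK7 is a kinase that phosphorylates and activates JNK, a stress-activated MAP kinase, and MKK7D is an active form of it. JNK phosphorylates c-Jun, a partner in the AP-1 transcription factor dimer. The αMHC promoter drives both transgenes in heart muscle cells, and Mer-Cre-Mer is a Cre recombinase fused to estrogen receptor parts that tamoxifen activates. JNK activity in the heart is known for lowering connexin 43, the main gap junction protein of the ventricle, and for a part in matrix remodelling. The matrix is made mainly by cardiac fibroblasts, which lie between the muscle cells.

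Transcripts were measured on Affymetrix whole-genome mouse arrays as signals of unit intensity, scaled to 1 trimmed mean per array. Differences are late minus early on the log2(signal + 32) scale, which understates changes of dim genes, for 12626 genes with 1 probe set each. The 6 arrays had median signals of 593.5 to 693.1 and were alike in the 3 prime to 5 prime signal ratio of Gapdh, at 0.829 to 0.895 early and 0.827 to 0.869 late. Pearson correlations between arrays ran from 0.974 to 0.977 within the early group, 0.970 to 0.978 within the late group and 0.968 to 0.974 between them. Defining heart muscle markers were among the brightest probe sets, with Myh6 (α myosin heavy chain) at 121320 to 169532 and Actn2 at 77594 to 103702 in the 6 arrays. The light chain of the ventricle Myl2 read 116880 to 173093. Atrial genes varied from array to array. The atrial light chain Myl7 read 876, 12239 and 335 early and 29520, 501 and 6410 late, and Sln (sarcolipin) 746, 6363 and 66.7 early and 28188, 797 and 5116 late. Of 7 atrial and conduction markers tested, 0 were called in either limma fit described below, and 1 had an unadjusted p under 0.05 in the 6-array fit.

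The control arrays did not all match their labels. The Esr1 probe set, which RNA of the Mer part can also feed, read 132729, 143792 and 133177 early and 109949, 88303 and 105983 late in the transgenic hearts. It read 7288, 3506 and 294 in the arrays labelled early control. In the arrays labelled late control it read 106402 and 91291 in replicates 8 and 9, within the range of the late transgenic hearts, and 953 in replicate 10. Early control replicate 1, titled female, had the Y-linked gene Eif2s3y at 6018 against 187 or less in the other 11 MKK7D arrays. Control values are given below array by array for that reason, and no control array enters the late minus early differences themselves. Control arrays, those in doubt included, do enter the spread, and with it the standard errors and p-values, of the 36-array fit described below, but not of the 6-array fit.

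Among the genes called in the 6-array fit described below, the largest differences between late and early transgenic hearts were those of Chodl, Kcnj14 and Tnmd, higher late, Paip1, lower late, and Thbs4, higher late. Of 42 matrix genes 39 were higher late. Genes of fatty acid oxidation and the respiratory chain were lower late in the values as deposited, by less after quantile normalization and by slightly more with equal array medians. How many genes passed a test depended on which arrays set the spread. With the spread taken from all 36 arrays (limma, Benjamini-Hochberg over all genes, called under an adjusted p of 0.05), 2 genes were called, which is 0.0158% of those tested, both higher late and 0 lower. At an unadjusted p under 0.05 that fit held 510 genes (4.04%), 335 higher (2.65%) and 175 lower (1.39%). With the spread taken from the 6 transgenic arrays alone, 151 genes were called (1.20%), 95 higher late (0.752%) and 56 lower (0.444%), and 1644 had an unadjusted p under 0.05 (13.0%). The fit on the 12 MKK7D arrays called 4 (0.0317%). The median residual SD of a gene was 0.275 on the log2 scale in the 36-array fit and 0.182 in the 6-array fit, and the median SD within a group ran from 0.141 to 0.321 over the 13 groups, with 0.168 in the early and 0.159 in the late MKK7D transgenic arrays. The 36-array fit was set out as the test and the 6-array fit as an alternative to it. No member of the gene lists below was called in the 36-array fit. The words rose and fell below refer to genes called in the 6-array fit, and none of these except Ccdc8 and Gm38983 was called in the 36-array fit.

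**Figure D1:**
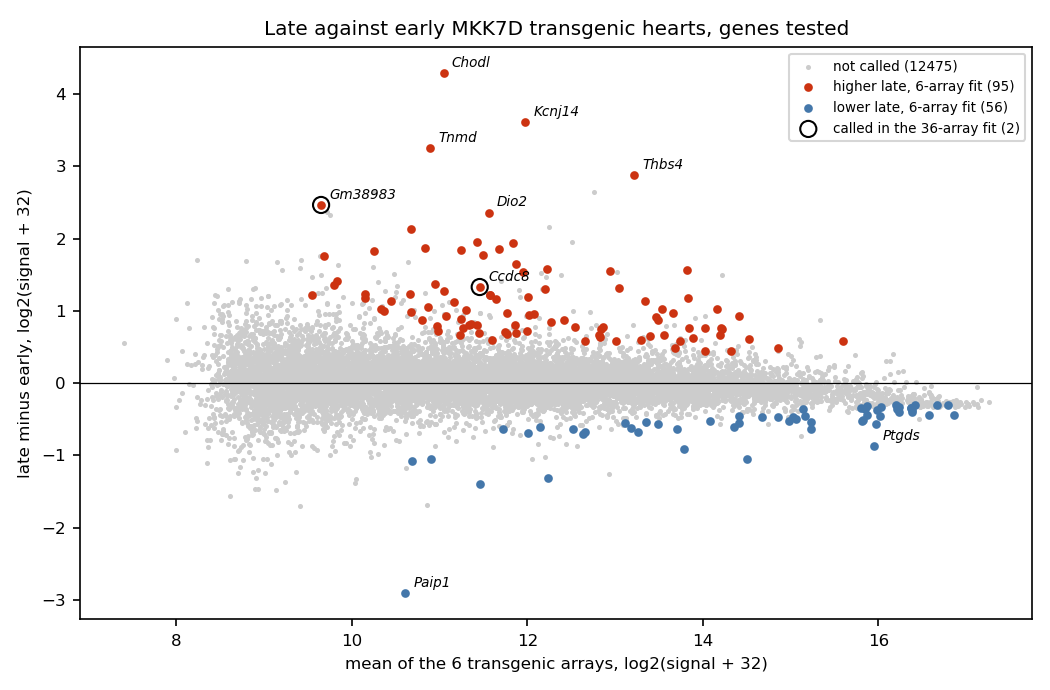
Each point is 1 of the 12626 genes tested, placed by its mean over the 6 transgenic arrays and its late minus early difference, both as log2(signal + 32). The 95 genes higher and 56 lower in the 6-array fit are coloured, the 2 called in the 36-array fit are circled, and most lower calls lie among bright genes while the higher calls lie over the whole range.

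Of the 151 genes, 44 rose and 6 fell by 2-fold or more. In all, 1212 genes had every late array above every early array (9.60%) and 1116 every late array below (8.84%). The median difference over all genes was 0.01. The counts also depended on single arrays: leaving out 1 of the 6 arrays left 31 to 121 calls, with 31 without early replicate 7, 35 without late replicate 13, 73 and 74 without early replicates 5 and 6, and 75 without late replicate 15. In each of these 6 fits 23 genes were called, 20 higher and 3 lower, and the same 23 were called after quantile normalization and after scaling to equal array medians. Without limma's intensity trend the 6-array fit called 10 genes, 9 higher and 1 lower, so not all of the 23 were called there.

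Promoters are shown for 4 of the genes that stood out, the gene that rose most (Chodl), the matrix gene that rose most (Thbs4), and a riser and a faller whose promoter holds a match to a Jun-type motif (Dio2 and Ptgds). Each is the 250 bases before the gene's start from RefSeq (build GRCm38.p6), 5′ to 3′ on the gene's strand, with a match to the AP-1 letters TGANTCA or the CRE letters TGACGTCA in capitals.
Chodl (chr16:78930698-78930947, plus strand): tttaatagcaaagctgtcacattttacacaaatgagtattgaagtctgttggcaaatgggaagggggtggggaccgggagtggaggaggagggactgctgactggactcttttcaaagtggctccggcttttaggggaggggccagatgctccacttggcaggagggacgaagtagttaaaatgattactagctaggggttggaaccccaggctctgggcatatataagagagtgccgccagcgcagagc
Thbs4 (chr13:92794819-92795068, minus strand): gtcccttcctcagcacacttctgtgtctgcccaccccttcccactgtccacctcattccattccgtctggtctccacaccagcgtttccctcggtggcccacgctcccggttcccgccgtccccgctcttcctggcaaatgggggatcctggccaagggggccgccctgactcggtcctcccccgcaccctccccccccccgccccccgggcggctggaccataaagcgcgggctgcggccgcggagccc
Dio2 (chr12:90739039-90739288, minus strand): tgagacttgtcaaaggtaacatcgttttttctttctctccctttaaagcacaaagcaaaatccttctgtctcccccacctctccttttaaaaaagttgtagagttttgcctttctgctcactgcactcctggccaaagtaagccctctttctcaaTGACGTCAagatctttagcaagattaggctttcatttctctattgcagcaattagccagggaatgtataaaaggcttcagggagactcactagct
Ptgds (chr2:25469750-25469999, minus strand): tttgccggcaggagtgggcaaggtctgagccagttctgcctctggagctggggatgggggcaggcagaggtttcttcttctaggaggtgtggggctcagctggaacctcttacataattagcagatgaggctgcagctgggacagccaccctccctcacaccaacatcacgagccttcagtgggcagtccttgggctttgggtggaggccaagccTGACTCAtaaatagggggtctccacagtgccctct
Both motifs read the same on the other strand, and they do not overlap with each other. Over 32851 promoters of this length, 6.75% held TGANTCA, 1.55% TGACGTCA and 6.02% the E-box CACGTG. Motifs were counted only in the named genes that led either fit in difference or p, and in Gm38983, where a promoter was known. Genes named only as list members or fixed in advance, such as Fn1, Mmp2, Etv5 and Jun, were not searched. The 14 searched genes higher late held TGANTCA in 1 (Pkn3), TGACGTCA in 1 (Dio2) and CACGTG in 2. The 19 lower late held TGANTCA in 4 (Gja1, Mme, Necab2 and Ptgds), TGACGTCA in 0 and CACGTG in 4. A gene counts here if any of its promoters matched, as Mme did in 1 of 3, while the shares above are of single promoters. The counts and the shares are therefore not directly comparable. Some of these genes, Gja1 and Necab2 among them, were not called in either fit. A match is a description of the letters only.

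Chodl, which encodes the C-type lectin-like membrane protein chondrolectin, rose most. Its signal was 89.2, 293 and 166 in the early and 2903, 5345 and 3697 in the late transgenic hearts. All late arrays lay far above all early ones, a fold of 19.6 (log2 4.29 ± 0.36 SE; limma adjusted p = 0.000723 in the 6-array fit, 0.112 in the 36-array fit). Tnmd, a membrane glycoprotein known from tendon, read 215, 617 and 231 early and 2324, 4253 and 3584 late (log2 3.25 ± 0.37; adjusted p = 0.00569, and 0.0932 in the 36-array fit). Thbs4, thrombospondin 4, a matricellular protein of tendon and stressed heart, read 1952, 2537 and 2051 early and 13121, 23394 and 13801 late (log2 2.88 ± 0.21; adjusted p = 0.000723, and 0.52 in the 36-array fit). The groups of these 3 genes did not overlap. In the arrays labelled late control, Thbs4 read 12192 and 23356 in replicates 8 and 9 and 2118 in replicate 10, and Chodl 4512, 5058 and 282, so replicates 8 and 9 lay near the late transgenic hearts and replicate 10 near the early ones.

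Both genes called in the 36-array fit were higher late, and both lie on chromosome 7. Ccdc8, a partner of the cullin 7 ubiquitin ligase complex, read 1427, 1774 and 1472 early and 4732, 4162 and 3121 late (log2 1.33 ± 0.21 SE in the 36-array fit; limma adjusted p = 0.014). The 6 control arrays read 1743 to 2705, below every late transgenic array. Gm38983, a gene model, read 184, 203 and 234 early and 1873, 936 and 1202 late (log2 2.47; adjusted p = 0.043), with controls at 260 to 1204 that overlap the late group. The genes next in order of p in that fit, among those with ordinary symbols and no overlap, missed the threshold. On the higher side, after Tnmd and Chodl, they were Fgf23, a phosphate-regulating hormone (98.4, 349 and 257 early; 896, 840 and 2430 late; adjusted p = 0.112), Scn3b, Mest and Col22a1, and then Kcnj14, Abat, Slc5a3, Ryr3 and Reln with adjusted p-values of 0.266 to 0.52. On the lower side Shisal1 came first, at 1525, 3287 and 1750 early and 1086, 737 and 888 late (−1.18; adjusted p = 0.295), before the sphingosine phosphate receptor S1pr4 (−1.37), Necab2, Lclat1, Zfp619, Ascl3, Apold1, Lingo3, Arrdc3, Clvs1, Paip1 and Gja1.

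**Figure D2:**
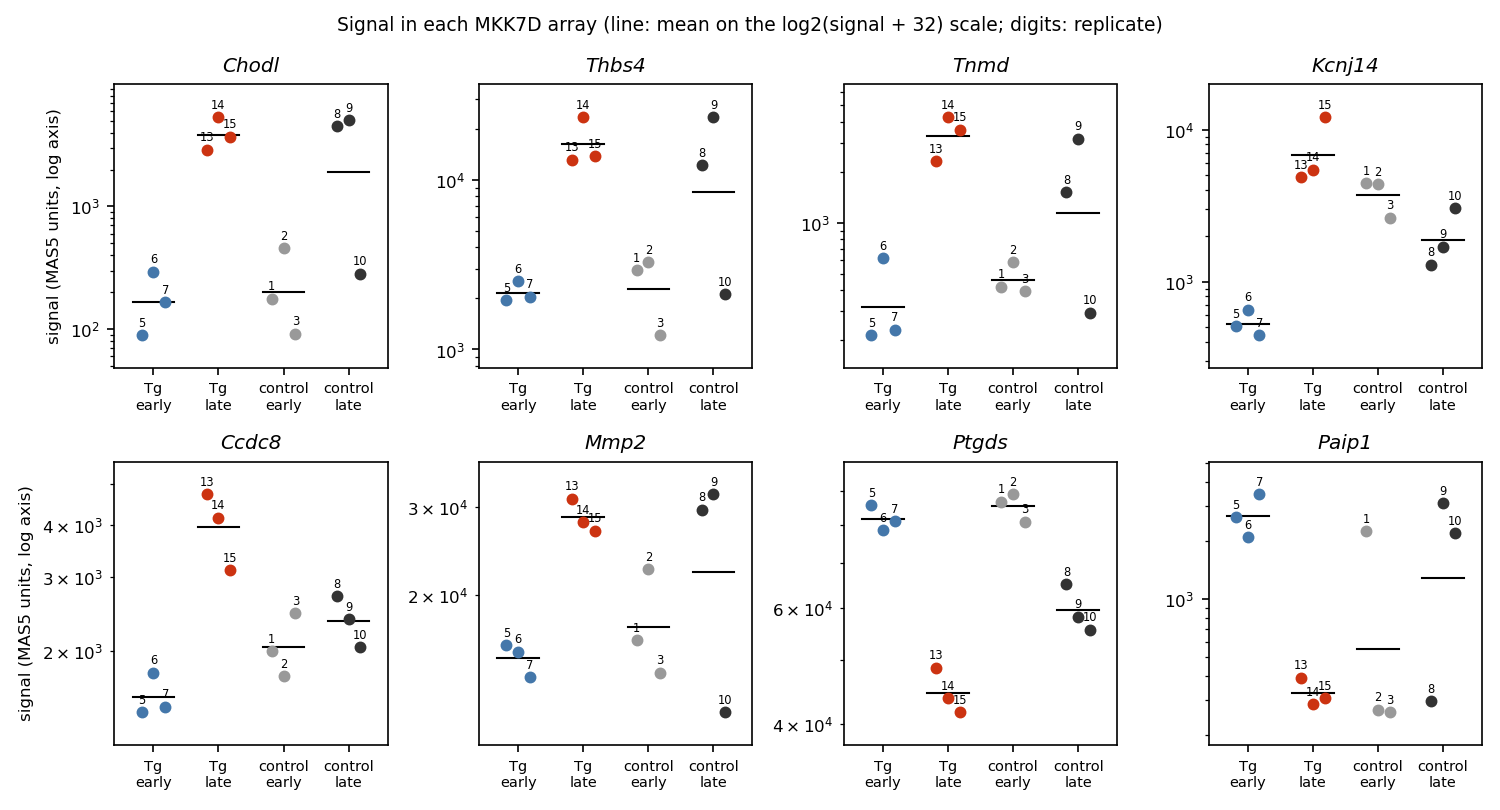
Signal in MAS5 units on log axes for 8 genes in each of the 12 MKK7D arrays (points, with replicate digits; lines, means of log2(signal + 32) per group of 3). The late transgenic arrays lie above the early ones for Chodl, Thbs4, Tnmd, Kcnj14, Ccdc8 and Mmp2 and below for Ptgds and Paip1, and late controls 8 and 9 lie beside the late transgenic arrays for Chodl, Thbs4, Tnmd and Mmp2.

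Kcnj14, an inwardly rectifying potassium channel, differed from that order in the controls. It read 508, 653 and 445 early and 4879, 5452 and 12082 late (log2 3.62 ± 0.30; adjusted p = 0.000723 in the 6-array fit). The controls read 4425, 4368 and 2632 early and 1297, 1697 and 3055 late, all above the early transgenic hearts. Dio2, the deiodinase that makes active thyroid hormone, read 677, 1632 and 620 early and 3302, 4013 and 7690 late (log2 2.36 ± 0.38; adjusted p = 0.0217). Its 2 other probe sets above the filter differed by 0.40 and 1.66. Ryr3, a ryanodine receptor calcium release channel, rose by 2.14 on the log2 scale from 429, 601 and 676 to 1876, 2637 and 3435, and its other probe set by 1.73 (adjusted p = 0.00625). Vgll2, a cofactor of TEAD transcription factors (1.94), Pamr1 (1.86), the secreted protease Adamts8 (1.86) and the kinase Pkn3 (1.83) followed among the named genes outside the lists.

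Matrix genes were higher late as a group. Of 42 fibrillar and other matrix genes tested, 39 were higher and 3 lower. All late arrays lay above all early arrays for 20, against 9.60% of all genes, and 7 were called, all upward (16.7%, against 0.752% of all genes called upward). The number called was 6 after quantile normalization and 8 with equal array medians. Their median difference was 0.39 against 0.01 over all genes, and 0.38 after quantile normalization. The 7 were Thbs4, the proteoglycan Fmod (fibromodulin, log2 1.84), the microfibril protein Ltbp2 (1.96), Fn1 (fibronectin, 0.97), the lysyl oxidase family enzyme Loxl3 (0.88), the microfibril glycoprotein Mfap5 (0.75) and Fbln1 (fibulin 1, 0.66). Ltbp2 and Fmod missed the threshold after quantile normalization (limma adjusted p = 0.0547 and 0.0579), so the 6 called there are not all among the 7. With 1 array left out, Ltbp2 and Fmod were each called in 1 of 6 fits, Loxl3 and Fbln1 in 2, Mfap5 in 4, and Thbs4 and Fn1 in all 6. Fn1 read 7989, 10786 and 7640 early and 17029, 16698 and 17499 late (adjusted p = 0.00987), and 17840, 18978 and 7205 in late controls 8, 9 and 10. The main fibrillar collagens were not called: Col1a1 read 31803, 34184 and 21104 early and 42984, 41513 and 41920 late (0.57, adjusted p = 0.116), and Col3a1 differed by 0.13. Postn (periostin, 0.88, adjusted p = 0.068) also missed the threshold.

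Matrix turnover and TGF-β family genes held fewer calls. Of 17 metalloproteinases and inhibitors, Mmp2 (gelatinase A) and Timp1, an inhibitor of such enzymes, rose, and 0 fell (11.8% called, against 1.20% of all genes). Timp1 missed the threshold after quantile normalization (adjusted p = 0.0647). Mmp2 read 15914, 15444 and 13748 early and 31118, 27906 and 26870 late, with no overlap (log2 0.93 ± 0.09; adjusted p = 0.00224 in the 6-array fit, 0.967 in the 36-array fit), and its other probe set differed by 0.97. Of 23 TGF-β pathway genes, 3 rose (Tgfbi, 1.14; Ltbp2; and the ligand Bmp4, 0.67) and 18 were higher, with a median of 0.18, and 0.752% of all genes rose. After quantile normalization Tgfbi alone of the 3 was called, and with equal array medians Tgfbi and Ltbp2 were, while Bmp4 had adjusted p-values of 0.0655 and 0.103. The ligands Tgfb1 (0.14), Tgfb2 (0.31) and Tgfb3 (0.67) were not called. Outside these lists Cilp (cartilage intermediate layer protein, 1.57), Igfbp6 (an insulin-like growth factor binding protein, 1.19), Pi16 (1.03), Aspn (asporin, 0.88) and Cd44 (a hyaluronan receptor, 0.59) rose, chosen for mention after their values were seen. Aspn missed the threshold after quantile normalization (limma adjusted p = 0.068). Cd44 missed it there (0.0654) and with equal array medians (0.105), and also whenever 1 array was left out.

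Markers of the cells that make matrix were read beside these genes. Of 19 fibroblast markers, 15 were higher, 2 (Islr and Pdgfrl) rose and 0 fell, with a median of 0.16 (10.5% called, against 1.20% of all genes). This list, like the others, was chosen with earlier results of these data known, so that share is a description only. Islr (adjusted p = 0.0587) and Pdgfrl (0.0638) both missed the threshold after quantile normalization, and Pdgfrl also with equal array medians (0.0727). Their summed signal ranged from 505549 to 621589 early and from 618949 to 662541 late, so the groups overlapped by a small margin. Pdgfra (0.34), Tcf21 (0.05) and Dcn (0.16) were not called. Of 22 macrophage markers 0 were called by limma (3 higher at an unadjusted p under 0.05), with summed signals of 77760 to 94366 early and 72017 to 119688 late, and of 19 endothelial markers 0 were called (1 higher and 2 lower unadjusted; median 0.07). Lymphocyte markers summed to 2737 or less in each of the 6 arrays. In whole tissue, more or fewer cells of a type and more or less RNA per cell cannot be told apart, and the part of the fibroblast share in the matrix result was not tested.

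Genes of fatty acid oxidation were lower late, by an amount that depended on the scaling. Of 33 genes of fatty acid uptake and oxidation, 31 were lower. All late arrays lay below all early arrays for 21, against 8.84% of all genes, and 7 fell in the 6-array fit (21.2%, against 0.444% of all genes called lower). Called members numbered 3 after quantile normalization and 2 with equal array medians. The median was −0.33 as deposited, −0.19 after quantile normalization and −0.36 with equal array medians, so the difference shrank under the first scaling and the second lost calls without a smaller difference. Acaa2, the thiolase of the last step of mitochondrial β-oxidation, read 48058, 42954 and 49341 early and 31130, 30528 and 28687 late (log2 −0.63 ± 0.08; adjusted p = 0.00756), and it was called under every scaling and with each array left out. Decr1 (−0.53), Eci1 (−0.48) and Hadh (−0.40), further enzymes of the pathway, the electron transfer proteins Etfa (−0.34) and Etfdh (−0.36) and the carrier Ucp3 (−1.06) made up the 7. Ucp3 read 1877, 2681 and 3181 early and 1156, 1086 and 1359 late.

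For the respiratory chain the calls depended on the scaling. As deposited, 40 of 41 genes were lower late, 38 of them without overlap, against 8.84% of all genes, and 10 fell, against 0.444% of all genes (Ndufs1, Ndufv2, Ndufa9, Sdha, Uqcrc1, Uqcrc2, Uqcrfs1, Cycs, Cox5b and Atp5pb), with a median of −0.26. After quantile normalization the median was −0.08 and 1 gene, Ndufs1, was called. With equal array medians 0 were called, while the median was −0.29 and Ndufs1 differed by −0.48 (adjusted p = 0.0778). The 200 brightest genes together had a median of −0.25 as deposited, 189 of them lower, and −0.02 after quantile normalization. Heart muscle genes are among the brightest and followed: 16 of 16 cardiomyocyte markers were lower with a median of −0.29 as deposited, which was −0.01 after quantile normalization, and 23 of 24 sarcomere genes were lower with 0 called (18 lower and 1 higher at an unadjusted p under 0.05 in limma; median −0.25, and 0.00 after quantile normalization). The summed signal of the cardiomyocyte markers was 1943909 to 2244069 early and 1596238 to 1847198 late. The share of all signal in the 100 brightest probe sets was 7.08% to 7.95% early and 6.14% to 6.86% late, without overlap, and what part this had in the lower values was not tested.

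**Figure D3:**
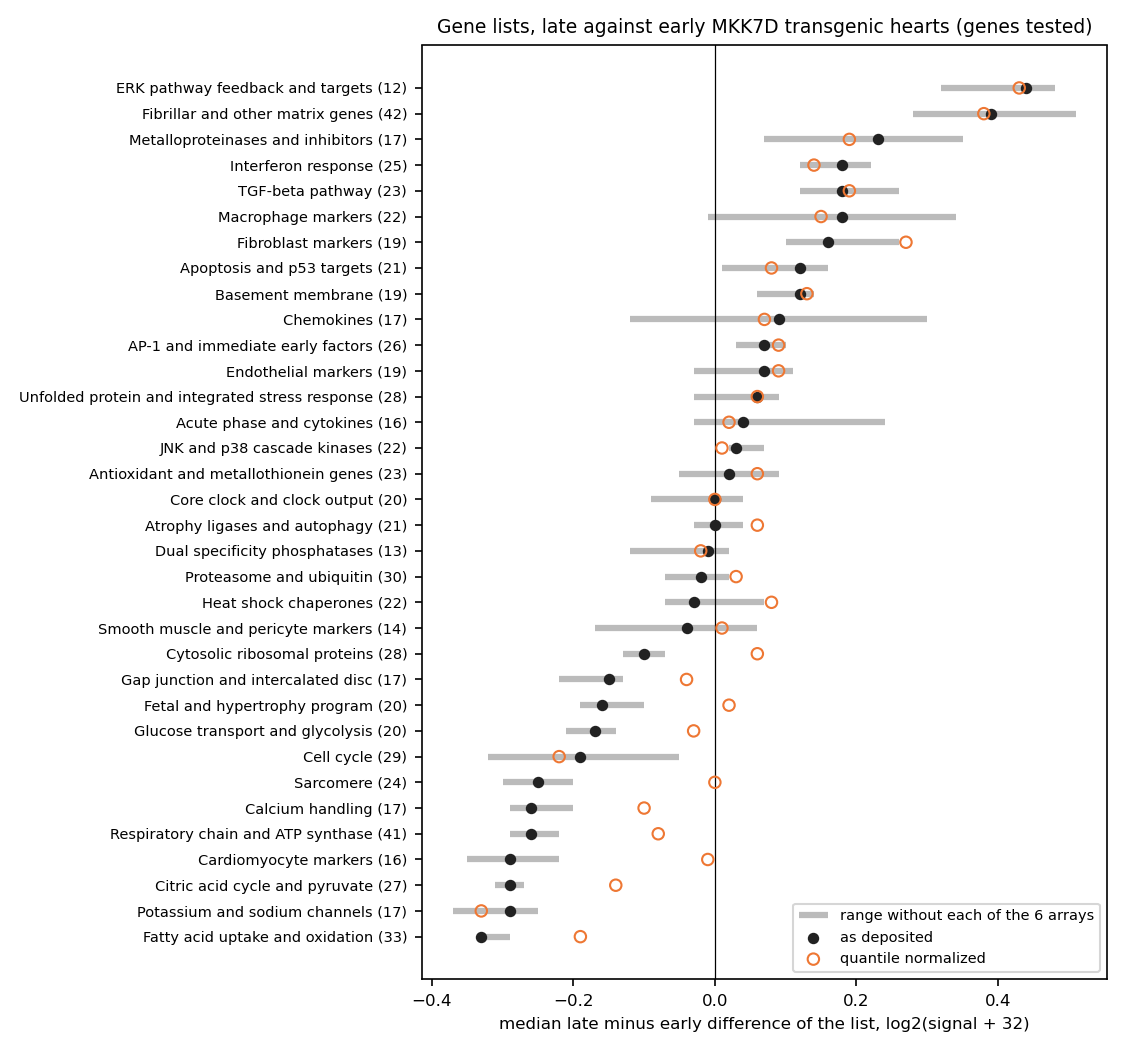
Median late minus early difference, log2(signal + 32), of each gene list with 10 or more genes tested (count in brackets): black as deposited, orange after quantile normalization, grey the range when each of the 6 arrays is left out. Matrix and ERK target genes keep medians near 0.4 under both scalings, while the sarcomere and cardiomyocyte lists move from −0.25 and −0.29 to 0.00 and −0.01.

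Excitation genes included a few calls on the lower side. Ryr2, the calcium release channel of heart muscle, read 63558, 70291 and 70221 early and 46009, 53198 and 43281 late (log2 −0.52 ± 0.09; adjusted p = 0.0275 in the 6-array fit), and Srl (sarcalumenin, a calcium-binding protein) fell by 0.35, the 2 of 17 calcium handling genes called (11.8%, against 1.20% of all genes). Of 17 potassium and sodium channel genes, Abcc9, a subunit of the ATP-sensitive potassium channel, fell by 0.52 and the two-pore channel Kcnk3 by 0.53 (2 of 17, or 11.8%, against 1.20% of all genes). The channel list had a median of −0.29 as deposited and −0.33 after quantile normalization, which left 1 call, Kcnk3. With equal array medians 0 were called, with Abcc9 at −0.55 (adjusted p = 0.0894) and Kcnk3 at −0.56 (0.128). Ryr2 and Srl lost their calls under both scalings.

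Among the other genes that fell, Ptgds, which makes prostaglandin D2, read 85784, 78602 and 81087 early and 48639, 43763 and 41607 late (log2 −0.87 ± 0.08; adjusted p = 0.000857), and its other probe set differed by −1.24. The late controls read 65058, 58093 and 55539, between both transgenic groups, and the early controls 80989 to 89052, overlapping the early transgenic hearts. Tfrc, the transferrin receptor that takes up iron, read 24769, 28676 and 40584 early and 14271, 13577 and 16897 late (−1.04). The peptidase Mme (neprilysin, −1.08), the ephrin Efnb3 (−1.32), the poly(A) polymerase Tent5c (−1.39) and the kinase Mylk4 (−0.92) fell as well. Paip1, a partner of the poly(A) binding protein, had the largest negative value, with 2633, 2077 and 3460 early and 394, 288 and 309 late (−2.91 ± 0.23; adjusted p = 0.000723). Its signals in the 12 MKK7D arrays formed a range of 261 to 394 in 6 arrays and of 2077 to 3460 in 6, and both ranges held early and late controls. Its other probe sets differed by −2.32 and 0.30.

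The pathway the transgene feeds showed no called kinase, in fits that called few genes of any kind. Of 22 genes of the JNK and p38 cascades, 0 were called in either limma fit, at a median of 0.03. Over all genes 1.20% were called in the 6-array fit and 0.0158% in the 36-array fit, so 0 of 22 says little. At an unadjusted p under 0.05 in the 6-array fit, 3 were higher and 1 lower, against 13.0% of all genes in either direction. Mapk8, which encodes JNK1, read 8181, 9198 and 8428 early and 7991, 9117 and 8490 late (log2 −0.01), and Map2k4, the other JNK kinase, differed by −0.17 ± 0.16 (SE of the 36-array fit). Map2k7 was not analysed here. Of 13 dual specificity phosphatases, which switch MAP kinases off, 0 were called by limma (2 higher and 2 lower unadjusted). Transcripts do not report the activity of these kinases.

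AP-1 and immediate early genes held 1 call of 26 (3.85%, against 1.20% of all genes), Ccn1, a matricellular protein, which rose by 0.62 and missed the threshold with equal array medians (adjusted p = 0.103). Jun, the JNK substrate, read 25099, 17717 and 14536 early and 24179, 24680 and 20261 late, with overlap (0.30 ± 0.24; adjusted p in limma's 36-array fit of 0.999). Fos (0.50), Egr1 (0.81) and Atf3 (−0.21) were not called. Of 12 ERK pathway targets, 11 were higher and 2 rose, the ETS factor Etv5 and Phlda1 (16.7%, against 0.752% of all genes), both called under both other scalings too. Etv5 read 1996, 1986 and 1478 early and 4075, 4210 and 4441 late (log2 1.22 ± 0.15; adjusted p = 0.00625), and Phlda1 rose by 0.96. The list had a median of 0.44.

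Connexin 43 and the fetal genes did not pass the threshold. Gja1, which encodes connexin 43, read 61518, 73755 and 73154 early and 51457, 61497 and 53898 late (log2 −0.32 ± 0.10; limma adjusted p = 0.871 in the 36-array fit and 0.153 in the 6-array fit). Every late array lay below every early one, but the highest late value, 61497, nearly equalled the lowest early value, 61518. Of all genes 8.84% had every late array below every early one. Of its 5 other probe sets, 4 differed by −0.41 to −0.29 and 1 by 0.44. Of 17 gap junction and intercalated disc genes, Sorbs2 alone was called, lower by 0.31 (5.88%, against 1.20% of all genes). Its difference was −0.10 after quantile normalization (adjusted p = 0.547) and −0.34 with equal array medians (0.217), so the call held under neither. The disc list had a median of −0.15 as deposited and −0.04 after quantile normalization, and the fetal list −0.16 and 0.02. The 200 brightest genes together had −0.25 and −0.02. The values of Gja1, Nppa and Nppb, which are also bright, are given as deposited only. The natriuretic peptide genes Nppa (146159 to 173695 early, 118658 to 143234 late, −0.33) and Nppb (109928 to 127433 early, 83152 to 108414 late, −0.33) were high in both groups and not called, and Myh7, β myosin heavy chain, overlapped (−0.06). Of 20 genes of the fetal and hypertrophy list, 1 was called (1.20% over all genes), Ankrd2, a stretch-responsive muscle protein, which rose by 0.93 from 1674, 1282 and 1428 to 2819, 2750 and 2826. That list also holds the atrial chains Myl4 and Myl7, whose values by array varied as given above.

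The arrays labelled late control were then read gene by gene for the 151 genes. Halfway between the mean of the early and that of the late transgenic arrays, 81 of the 95 risers lay past the midpoint in control replicate 8, 82 in replicate 9 and 15 in replicate 10. Of the 56 fallers the counts were 42, 53 and 8. The median of the 95 genes, relative to the mean of the early transgenic arrays, was 0.87 in replicate 8, 0.94 in replicate 9 and −0.10 in replicate 10, against 0.94 to 0.98 in the late transgenic arrays. In the early controls it was −0.18, 0.30 and −0.23.

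**Figure D4:**
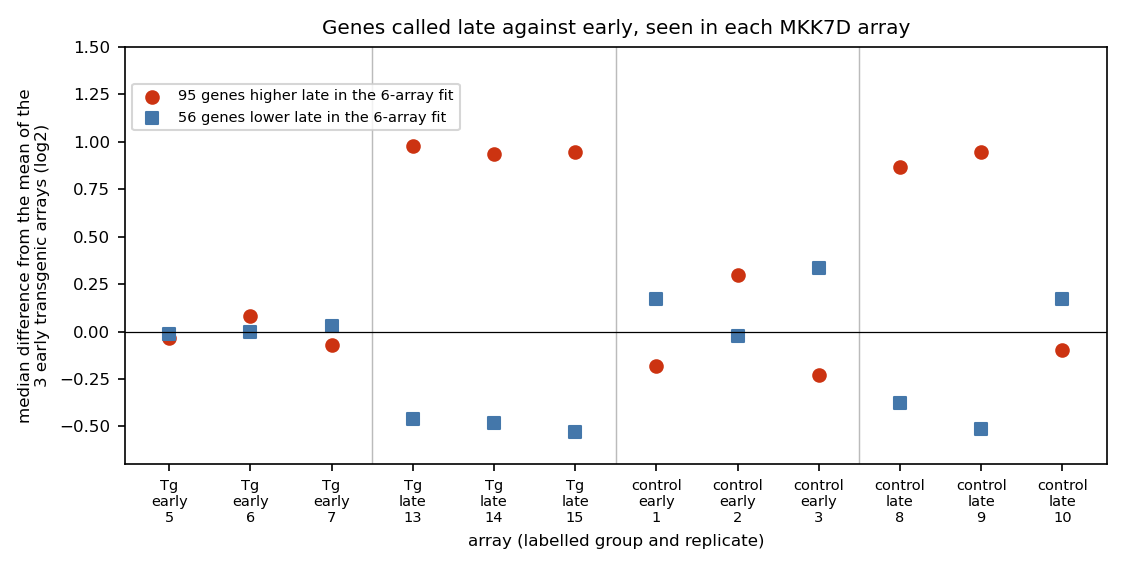
Median difference from the mean of the 3 early transgenic arrays, in log2 units, of the 95 genes higher late (circles) and the 56 lower late (squares), in each of the 12 MKK7D arrays. Late controls 8 and 9 sit with the late transgenic arrays and late control 10 with the early ones; the transgenic points are those that chose the genes.

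Time was compared in the same way in the control arrays as labelled. Late against early, 10 genes were called in the 36-array fit (0.0792%), 7 higher (0.0554%) and 3 lower (0.0238%), and 1 when the 3 arrays in doubt (early 1, late 8 and 9) were left out. Nr1d1 and Bhlhe40, repressors of the circadian clock, were among the 7. Bhlhe40 read 5809, 6627 and 6164 in early and 23799, 23118 and 20522 in late controls, and 18366, 23193 and 21661 early and 18507, 18833 and 18892 late in the transgenic hearts, so the early controls stood apart from the other 9 arrays. The test of the difference, the change in transgenic minus that in control hearts, called 2 genes (0.0158%), Bhlhe40 and Arrdc3. For both, the late minus early difference was lower in the transgenic hearts than in the controls, and 0 genes were called with a higher one.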

How the data were processed

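Arrays were grouped by their titles. The authors deposited linear signals, of unit intensity (MAS5, per the submitters' processing notes, in a version not given in the sources used here), and every array had the same trimmed mean of 2500 with 2% of probe sets left off at each end. A single gene symbol was known for 34958 of 45101 probe sets. Values were taken as log2(signal + 32). Probe sets in the upper 60% by mean over the 36 arrays were kept, and the brightest per gene gave 12626 genes. In limma, 36 arrays entered a fit of 13 group means (version 3.58.1 under R 4.3.3; eBayes with an intensity trend, 23 residual degrees of freedom), and the 6 transgenic arrays a second one (4 residual degrees of freedom). P-values were adjusted over all genes tested (Benjamini-Hochberg) and called under 0.05. The fits were tested on simulated data.

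The gene lists and the comparison itself were chosen with earlier results of these data known. Named genes were, in each direction, the 12 that differed most among called genes with 1 ordinary symbol and no overlap between groups, filled up by smallest unadjusted p, called list members, and Esr1, Map2k4, Mapk8, Jun, Nppa, Nppb, Myh7, Gja1 and Col1a1. The same rule was applied to the 6-array fit after its count was seen. Of the 151 genes it called, 74 were read by more than 1 probe set that passed the filter, and 7 of their 127 further probe sets had the opposite sign. Alternatives were other spreads, array weights, pseudocounts, filters, scalings, the mean of a gene's probe sets and leaving out arrays. Detection calls were not used here.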

Additional observations from a re-analysis of the deposited data

Results flagged for a closer look

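The late minus early difference of 2 genes differed between transgenic and control hearts by a test of that difference in the 36-array limma fit. For Bhlhe40, a transcriptional repressor of the circadian clock, it was lower in the transgenic hearts by −2.01 ± 0.33 (SE; adjusted p = 0.0225), made of −0.16 in the transgenic and 1.85 in the control arrays. For Arrdc3, an arrestin domain protein, it was −1.26 ± 0.22 (adjusted p = 0.0225), made of −0.48 and 0.77. Arrdc3 read 9077, 10238 and 11788 early and 6353, 8121 and 7719 late in transgenic hearts, and 5750, 7702 and 5944 early and 10931, 11941 and 10133 late in controls. Both tests use control arrays that go against their labels. Without the 3 control arrays in doubt (early 1, late 8 and 9) both lost the call. Both also lost it when any 1 of transgenic late replicates 13 and 15, transgenic early replicates 6 and 7, control early replicate 1 and control late replicates 8 and 9 was left out. Arrdc3 lost it as well without control early replicate 3, with the 12 MKK7D arrays alone and with equal array medians.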

How the results depend on the processing

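For transgenic late against early, the 2 calls became 151 with the 6 arrays alone, 4 with the 12 MKK7D arrays and 105 with array weights. They became 1 with a larger pseudocount, without a filter, with the upper 40% of probe sets or without 3 HRas-v12 arrays in doubt, and 0 after quantile normalization. With 1 array left out they numbered 0 to 1. The 6-array count, whose further settings were chosen after seeing the data, became 10 without the intensity trend, 61 without a filter, 98 after quantile normalization (94 shared with the 151, 62.3% of these and 95.9% of the 98) and 91 with equal array medians (78 shared, 51.7% and 85.7%). Leaving out 1 array gave 31 to 121. The share higher was 62.9% as deposited, 73.5% after quantile normalization and 83.5% with equal medians. Esr1 was called lower late in the 6-array fit (log2 −0.43; limma adjusted p = 0.0461) and lost the call whenever 1 array was left out. Its other probe set differed by 0.46, and with the mean of its probe sets the value turned to 0.01.

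The 10 control calls became 1 with the 6 control arrays alone, 2551 with array weights, 5 with equal medians, 1 without the 3 control arrays in doubt and 116 without the HRas-v12 arrays. With 1 array left out they numbered 4 to 713, with 713 without late replicate 10 and 52 without early replicate 2. The 2 calls of the difference became 5 with the 12 MKK7D arrays, 375 with array weights and 1 with equal medians, and 0 to 9 with 1 array left out. Without the 3 control arrays in doubt there were 2, both higher. The causes were not tested. No paired analysis was possible because each left ventricle was harvested once, either early or late. The early (5, 6, 7) and late (13, 14, 15) arrays also share no replicate number. Signal over background was not used here, so a low signal says nothing on presence.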

Other observations

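A few more of the 95 genes that rose in the 6-array fit are given as values, chosen after these were seen. Scn3b, a sodium channel subunit, read 439, 549 and 398 early and 1395, 978 and 1522 late (log2 1.42), Slc5a3, the sodium-coupled myo-inositol transporter, 2297, 2688 and 2136 early and 7884, 6579 and 6909 late (1.58), and Npr3, the clearance receptor of natriuretic peptides, 10778, 7468 and 8340 early and 18685, 16161 and 25853 late (1.18). The groups did not overlap in any of these. Among lists that were called in 1 member, Ifit3 of 25 interferon response genes rose by 1.12 (4% called), Cxcr4 of 17 chemokine genes by 1.06 (5.88%) and Nfil3 of 20 clock genes by 0.76 (5%). Over all genes 0.752% rose, so 1 call in lists of this size says little about the lists. Nfil3 missed the threshold after quantile normalization (limma adjusted p = 0.0579) and with equal array medians (0.0661). With 1 array left out, Cxcr4 and Nfil3 were each called in 1 of 6 fits and Ifit3 in all 6. Of 29 cell cycle genes 0 were called by limma (4 lower at an unadjusted p under 0.05), at a median of −0.19.

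Along the genome, genes called in the 6-array fit lay near each other in a pair of cases, picked after their values were seen: Gm38983 and Zfp30 with 1 tested gene between, and Bcat2 and Kcnj14 with 7. Bcat2, a branched-chain amino acid enzyme, read 3302, 1979 and 2889 early and 5578, 6304 and 8127 late in transgenic hearts, and 11141, 7850 and 10257 early and 2162, 1854 and 8302 late in controls. Zfp30 read 1568, 1968 and 2102 early and 9654, 4318 and 3888 late in transgenic hearts, and 6262, 3208, 9626, 1981, 1891 and 12354 in controls 1, 2, 3, 8, 9 and 10. For both genes controls 8 and 9 were the lowest of the 6, as for Kcnj14 (1297 and 1697). Ccdc8 and Gm38983, the 2 genes called in the 36-array fit, both lie on chromosome 7, with promoters from bases 16993652 and 29768254. What part a shared location had in these values was not tested.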
